A study of Mus musculus with 12 samples.

Results

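The cells described here are barcodes from treated mouse brains that carried UMIs of cell division genes. A barcode was selected when it had at least 200 detected genes, at most 10% mitochondrial UMIs and at least 3 summed UMIs of Mki67, Top2a, Birc5, Pclaf, Ube2c, Hist1h1b and Prc1. In the 8 treated libraries, 118 of 27439 kept cells met this rule, out of 30775 kept cells in all 12 libraries. GFP+ libraries held 76 of them and GFP- libraries held 42. The 8 libraries had 31104 deposited barcodes, and 101 kept barcodes occurred in more than 1 treated library (0 to 8 per pair of libraries), none of them a selected cell. The cells next to the threshold were 27 selected cells with exactly 3 UMIs (0 to 8 per library) and 78 cells left out with exactly 2 UMIs (3 to 20 per library).

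The study transplanted lineage-negative hematopoietic stem/progenitor cells (HSPCs), transduced with a lentiviral vector for GFP, into C57BL/6J mice conditioned with the alkylating agent busulfan. Cells were dosed intravenously (i.v.) or into the lateral ventricle (intracerebroventricular, i.c.v.), and whole brains were dissociated and sorted for CD45+ CD11b+ CX3CR1+ cells. GFP+ cells, which the study calls microglia-like cells (MLCs), and GFP- cells, called endogenous microglia, were run in separate 10x Genomics 3′ libraries. Each route had 1 female and 1 male mouse, so the 8 libraries came from 4 mice and the GFP+ and GFP- library of a mouse are paired. All recipients had been given busulfan, all donors were male per the study's methods, and those methods also describe additional non-transduced bone marrow given i.v., so a GFP- cell can be of donor origin. Per the study's methods and design text the cells were collected 12 to 13 months after dosing, although the treated animals are labelled as 22 to 28 weeks old. Neurons, astrocytes, microglia and white blood cells of 1 naive mouse, labelled 8 to 12 weeks old and so not of the age of the treated animals, formed 4 more libraries.

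A dividing cell copies its DNA in S phase and separates the copies in G2 and mitosis. S phase runs on the MCM helicase, the nucleotide enzymes and newly made histones, while G2 and mitosis run on cyclin B with Cdk1, the Aurora and Polo kinases and the spindle motors. Microglia are long-lived resident macrophages that renew themselves slowly by local division and depend on the receptor Csf1r. Border macrophages, monocytes and dendritic cells of the meninges, choroid plexus and vessels are replaced from the bone marrow to differing extents, and dendritic cells present antigen on MHC class II.

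Each of the 7 genes used for selection serves DNA replication or mitosis. Mki67 encodes Ki-67, which coats mitotic chromosomes. Top2a encodes the topoisomerase that untangles sister DNA. Birc5 encodes survivin of the chromosomal passenger complex. Pclaf encodes a partner of the replication clamp PCNA. Ube2c encodes the ubiquitin-conjugating enzyme of the anaphase-promoting complex. Hist1h1b encodes a linker histone made in S phase, and Prc1 encodes a protein that bundles the central spindle. The promoters of many genes of late cell cycle phases carry CCAAT boxes and a cell cycle homology region (CHR), through which the DREAM and MMB complexes act. RefSeq promoter windows of 300 bases around the annotated start (GRCm38.p6) were matched for 6 of the 7 genes. They are shown for 4 of these, which include the windows with the most and the fewest matches to the 2 motifs, with the matches of both in capitals. CCAAT was searched on both strands. For the CHR, the letters TTTGAA were searched on both strands, and so was the variant TTCGAA. The windows are Mki67 at chr7:135716330-135716629 on the minus strand, Top2a at chr11:99024140-99024439 on the minus strand, Ube2c at chr2:164769679-164769978 on the plus strand and Birc5 at chr11:117848987-117849286 on the plus strand.
Mki67: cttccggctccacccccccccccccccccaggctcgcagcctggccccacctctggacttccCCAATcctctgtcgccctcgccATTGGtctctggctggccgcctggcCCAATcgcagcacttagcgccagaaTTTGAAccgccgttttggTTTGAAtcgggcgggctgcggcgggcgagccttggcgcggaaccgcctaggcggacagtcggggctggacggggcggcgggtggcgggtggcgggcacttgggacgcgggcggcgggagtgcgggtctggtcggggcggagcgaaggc
Top2a: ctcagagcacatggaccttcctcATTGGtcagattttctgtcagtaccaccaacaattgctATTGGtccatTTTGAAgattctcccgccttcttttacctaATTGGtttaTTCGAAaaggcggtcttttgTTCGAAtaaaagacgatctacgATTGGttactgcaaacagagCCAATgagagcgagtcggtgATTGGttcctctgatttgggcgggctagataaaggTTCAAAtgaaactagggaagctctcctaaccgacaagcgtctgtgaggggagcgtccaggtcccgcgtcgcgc
Ube2c: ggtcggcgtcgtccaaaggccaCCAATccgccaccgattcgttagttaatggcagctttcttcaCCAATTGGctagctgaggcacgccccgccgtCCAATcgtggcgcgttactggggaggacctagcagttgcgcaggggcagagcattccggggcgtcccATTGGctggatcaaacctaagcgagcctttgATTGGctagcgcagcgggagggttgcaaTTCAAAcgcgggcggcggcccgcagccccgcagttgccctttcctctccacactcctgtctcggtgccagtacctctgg
Birc5: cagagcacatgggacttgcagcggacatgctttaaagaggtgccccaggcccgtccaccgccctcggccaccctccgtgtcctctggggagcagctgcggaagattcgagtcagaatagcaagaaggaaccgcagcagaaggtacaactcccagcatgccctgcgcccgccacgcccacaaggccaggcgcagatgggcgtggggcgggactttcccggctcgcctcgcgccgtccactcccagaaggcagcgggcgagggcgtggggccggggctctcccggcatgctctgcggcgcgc
The Mki67 window held 3 CCAAT and 2 CHR matches, the Top2a window 6 and 4, and the Ube2c window 6 and 1, of which 2 CCAAT matches overlap on opposite strands. The Birc5 window held neither set of letters. Of the 7 windows of the 6 genes (Prc1 has 2 that overlap), 6 held CCAAT, 5 held a CHR and the same 5 held both. Among all 32851 windows of the table, 37.4% held CCAAT, 19.2% a CHR and 7.52% both. In 50 windows of the G2/M gene list used below, 74.0% held CCAAT, 72.0% a CHR and 58.0% both. In 41 windows of the S phase list the shares were 61.0%, 17.1% and 12.2%. A match of letters is a description of the window and shows no bound factor.

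Depth differed strongly between the selected cells of different libraries. Their median UMI count was 11553 in the female and 17757 in the male i.v. GFP+ library, 6440 and 6360 in the i.c.v. GFP+ libraries, and 933, 1620, 2275 and 1551 in the 4 GFP- libraries (i.v. female, i.v. male, i.c.v. female, i.c.v. male). The other kept cells had medians of 842 to 3443 UMIs, so the i.v. GFP+ selected cells were the deepest set. Mki67 was found in 89 of the 118 cells (615 UMIs) and Top2a in 83 (626 UMIs). Prc1 was found in 56, Birc5 in 46, Hist1h1b in 40, Pclaf in 36 and Ube2c in 33. Hist1h1b reached the highest count in a single cell, with 107 UMIs. In 34 cells the rule was met by 1 gene alone, which was Mki67 in 19 of them and Top2a in 10. In 21 cells it was met by 2 genes, and in 63 cells by 3 or more.

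The label of dividing cells was checked with S phase and G2/M gene lists that hold none of the 7 genes. For each selected cell, the UMIs of both lists per 10000 UMIs were ranked among the other cells of its library with a UMI count within 2-fold of its own. In all, 73 of 118 cells (61.9%) lay at or over the 99th percentile, and 36 lay under the 90th. The 73 cells had a median of 155 list UMIs per 10000, against 14.6 in the other 45 and library medians of 12.9 to 14.5 in cells that were not selected. The shares at or over the 99th percentile were 27 of 62 in the i.v. GFP+ libraries, 11 of 14 in the i.c.v. GFP+ libraries, 15 of 18 in the i.v. GFP- libraries and 20 of 24 in the i.c.v. GFP- libraries. Among cells with 3 or more of the 7 genes it was 62 of 63, among cells with 2 genes 5 of 21, and among cells with 1 gene 6 of 34. The name was thus borne out by further cell cycle genes for 73 cells, while the remaining 45, which had a median of 11301 UMIs, did not carry more cycle-list UMIs than cells of similar depth at this percentile. For this reason the 118 cells are called selected cells here, and shares and lineage counts are also given for the 73. Only 3 libraries held 10 or more of the 73 (2 i.v. GFP+ and the i.c.v. GFP- female), so the expression comparisons, the single-gene levels, the origin and the phase counts rest on all 118.

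**Figure D1:**
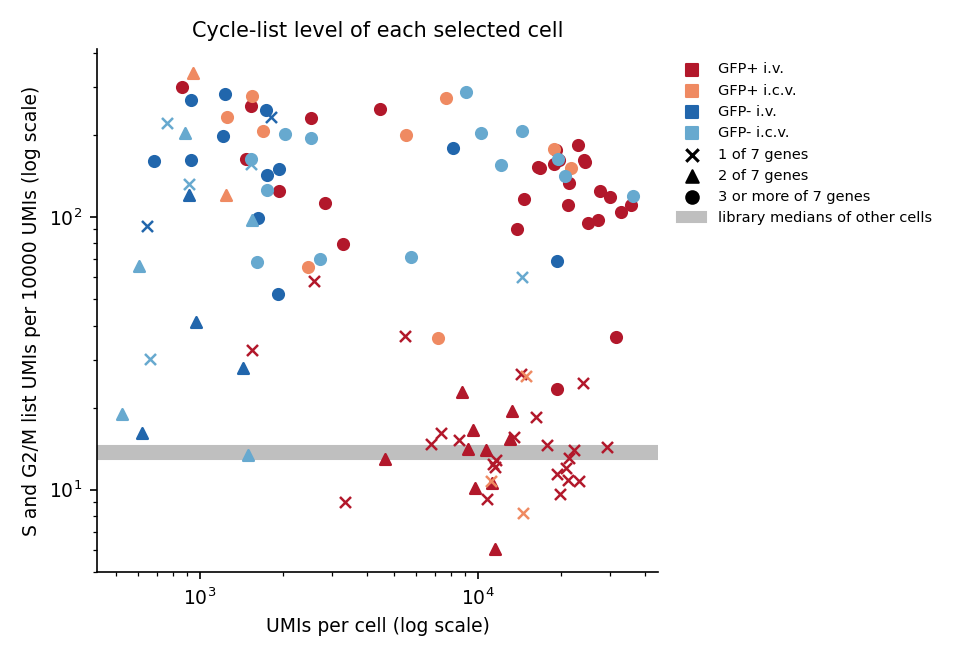
S and G2/M list UMIs per 10000 UMIs (log scale) against UMIs per cell (log scale) for each of the 118 selected cells. Colour gives sort and route, the marker shape gives how many of the 7 genes had UMIs, and the grey band spans the library medians of other cells (12.9 to 14.5), on which many deep i.v. GFP+ cells with 1 or 2 genes lie.

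The first comparison asked whether the share of such cells differed between GFP+ and GFP- cells. By the rule at each cell's own depth, the shares in the GFP+ libraries were 0.927% (31 of 3344) and 1.37% (31 of 2266) in the i.v. female and male and 0.153% (4 of 2621) and 0.283% (10 of 3536) in the i.c.v. female and male. The shares in the GFP- libraries were 0.262% (7 of 2675), 0.241% (11 of 4555), 0.321% (14 of 4355) and 0.245% (10 of 4087) in the same order. The i.v. GFP+ libraries were thus above all others, with exact 95% binomial intervals of 0.631 to 1.31% and 0.931 to 1.94% that do not reach the highest GFP- upper bound of 0.539%. These intervals cover counting error only. With every cell thinned to 500 UMIs and counted at 2 or more UMIs of the 7 genes, the expected shares became 0.344%, 0.269%, 0.0871% and 0.196% in GFP+ and 0.213%, 0.177%, 0.264% and 0.185% in GFP-. At this equal depth the groups overlapped. No kept cell of the 8 libraries had fewer than 500 UMIs, so none was left out. The means were 0.224% ± 0.110 in GFP+ and 0.210% ± 0.0395 in GFP- (SD, n = 4 libraries each, exact two-sided permutation test p = 0.83), a difference of 0.0145 percentage points, with GFP+ higher in 3 of 4 mice. The smallest p this design allows is 0.0286. Leaving out either i.v. GFP+ library turned the sign of this small difference, to -0.0256 without the female and -0.000515 without the male library. At own depth the means were 0.683% ± 0.569 and 0.267% ± 0.0372 (SD, n = 4, exact permutation p = 0.343). For cells that also lay at or over the 99th percentile of the cycle lists, GFP+ exceeded GFP- by 0.104 points (exact permutation p = 0.343). The libraries are the units of all tests here, and p-values measure the spread between these libraries of 4 mice.

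By route, 2 libraries against 2 cannot reach a p of 0.05, so the values are given alone. In GFP+ cells the thinned share averaged 0.307% after i.v. and 0.142% after i.c.v. dosing (2.17-fold), and both i.v. libraries were above both i.c.v. libraries. They overlapped with a stricter cell filter, where the i.v. male was at 0.257% and the i.c.v. male at 0.304%, and with at least 3 UMIs at 500 UMIs, where these libraries were at 0.0966% and 0.0999%. The ratio was 5.27-fold at own depth, which was unequal between libraries, 2.96-fold for cells at or over the 99th percentile and 1.44-fold with the stricter filter. In GFP- cells the thinned share averaged 0.195% after i.v. and 0.225% after i.c.v. dosing, and the libraries of the 2 routes overlapped.

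**Figure D2:**
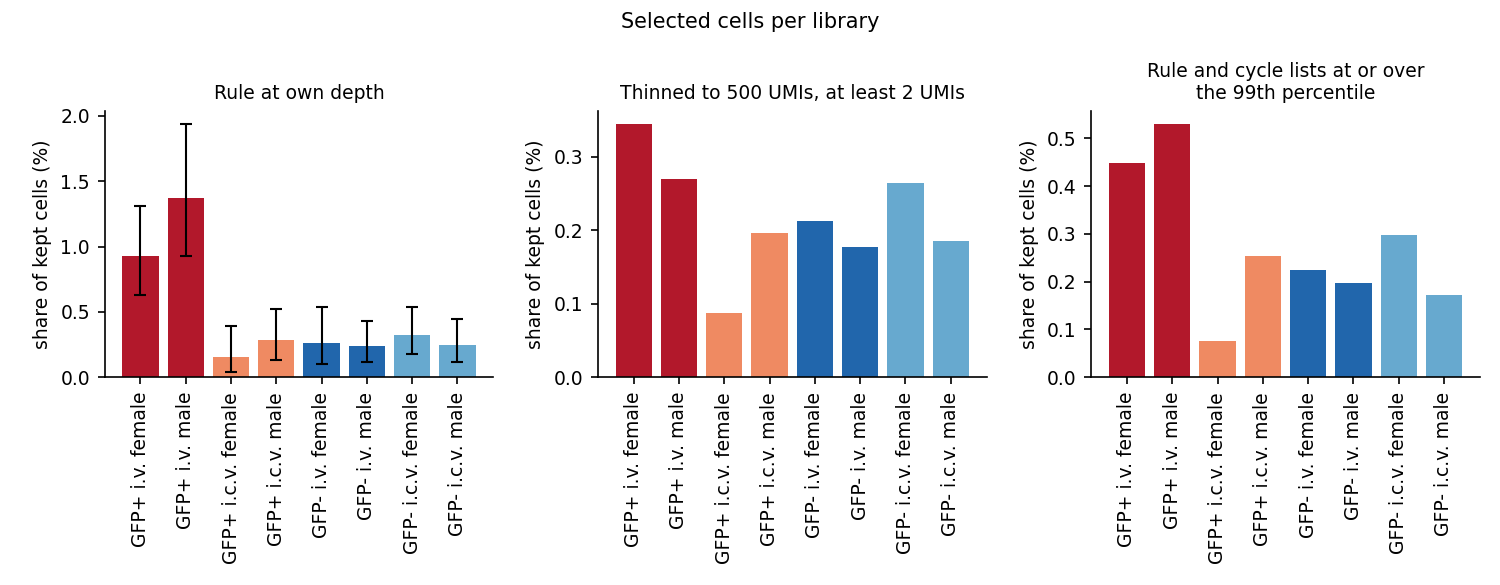
Share of kept cells (%) per library by the rule at own depth (left, bars with exact 95% binomial intervals), after thinning to 500 UMIs with at least 2 UMIs of the 7 genes (middle) and for cells also at or over the 99th percentile of the cycle lists (right). The axes differ: the i.v. GFP+ bars exceed all others on the left (0.927% and 1.37%), while the thinned shares lie between 0.0871% and 0.344%.

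The lineage of the selected cells was read from lists of marker genes, with a cell counted for a list once 3 of its markers had a UMI. Microglia markers (such as P2ry12, Tmem119 and Siglech) were met in 102 of 118 cells, border macrophage markers (Mrc1, Pf4, Ms4a7 and others) in 30, monocyte markers (Ccr2, S100a4, Plac8 and others) in 41 and dendritic markers (Cd209a, Flt3, Ccr7 and others) in 33. Of the 33 cells with dendritic markers, 32 were in the 2 i.v. GFP+ libraries. In the 6 other libraries, 55 of 56 cells met the microglia list, and 44 met it alone. A cell can meet several lists: 29 cells met the dendritic and the monocyte list, 24 the dendritic and the microglia list, and 9 were dendritic without microglia.

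Within the i.v. GFP+ libraries the dendritic and monocyte counts were alike in both mice, while the microglia and border macrophage shares were not. Dendritic markers were met in 16 of 31 cells (51.6%, exact 95% interval 33.1 to 69.9%) in each library, and monocyte markers in 19 of 31 (61.3%) in each. Other kept cells of the same libraries met the dendritic list in 3.74% and 4.12% and the monocyte list in 6.76% and 6.22%. Microglia markers were met in 67.7% and 83.9% of the selected cells, against 79.3% and 66.7% of the other cells, so they were lower in the female and higher in the male. Border macrophage markers were met in 6 of 31 (19.4%) and 15 of 31 (48.4%), against 57.6% and 45.9% of the other cells. Since deep cells show more markers, the lists were also counted after thinning to 1000 UMIs, which left out 1656 of the 5610 kept cells of these libraries as too shallow. At least 2 dendritic markers were then found in 9 of 30 cells (30%) and 8 of 31 (25.8%) selected cells, against 2.25% and 2.94% of the others. At least 3 microglia markers were found in 30% and 22.6% of the selected cells, against 70.3% and 60.3% of the others. Read the other way, 16 of 140 cells (11.4%) and 16 of 108 cells (14.8%) with dendritic markers in these libraries were selected cells. Cells with dendritic markers had median depths of 13652 and 17131 UMIs, where 3 UMIs of the 7 genes are reached more easily than at the median of all cells.

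No selected cell of the i.c.v. GFP+ libraries met the dendritic or the monocyte list. This was 0 of 4 in the female and 0 of 10 in the male library, or 0 of 14 together, which by counting error alone allows up to 21.4% of cells with 3 detected markers. These cells of 2 mice held 949 to 21613 UMIs, and markers can go undetected in the shallow ones. Cells with dendritic markers were scarce in these libraries as a whole, with 0 of 2621 and 2 of 3536 kept cells, against 140 of 3344 and 108 of 2266 in the i.v. GFP+ libraries. All 14 met the microglia list, 5 also met the border macrophage list, and 6 of the 10 cells of the male met the MHC class II list. In the 4 GFP- libraries, 41 of 42 cells met the microglia list and 35 met it alone. The i.c.v. GFP- female library held the only GFP- cell with dendritic markers, which also met the microglia list, and 2 of the 3 GFP- cells with monocyte markers. MHC class II genes (at least 3 of Cd74, H2-Aa, H2-Ab1, H2-Eb1, H2-DMa, H2-DMb1 and Ciita) were found in 28 of 31 (90.3%) and 27 of 31 (87.1%) i.v. GFP+ selected cells, against 49.8% and 47.3% of the other cells of these libraries, and in 14 of 56 selected cells of the 6 other libraries, which were shallower. After thinning to 1000 UMIs, 22 of 30 (73.3%) and 26 of 31 (83.9%) i.v. GFP+ selected cells met this list, against 36.4% and 37.2% of the others. At that depth it was met by 0 of 4 and 4 of 9 selected cells in i.c.v. GFP+ and by 0 of 3, 1 of 8, 3 of 12 and 0 of 6 in GFP-. Restricting the cells to the 73 with high cycle lists left 63 with microglia, 18 with border macrophage, 17 with monocyte and 14 with dendritic markers. Of the 14, 13 were in i.v. GFP+ libraries, where 27 cells remained. Lists of T and NK cells, B cells, erythroid cells, hematopoietic progenitors, oligodendrocyte precursors, astrocytes, neural progenitors, endothelial and choroid plexus cells were met by 0 of 118 cells, which by counting error alone allows up to 2.54% with 3 detected markers, in cells of 527 UMIs upward. The oligodendrocyte list was met by 3 cells and the neutrophil list by 1.

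**Figure D3:**
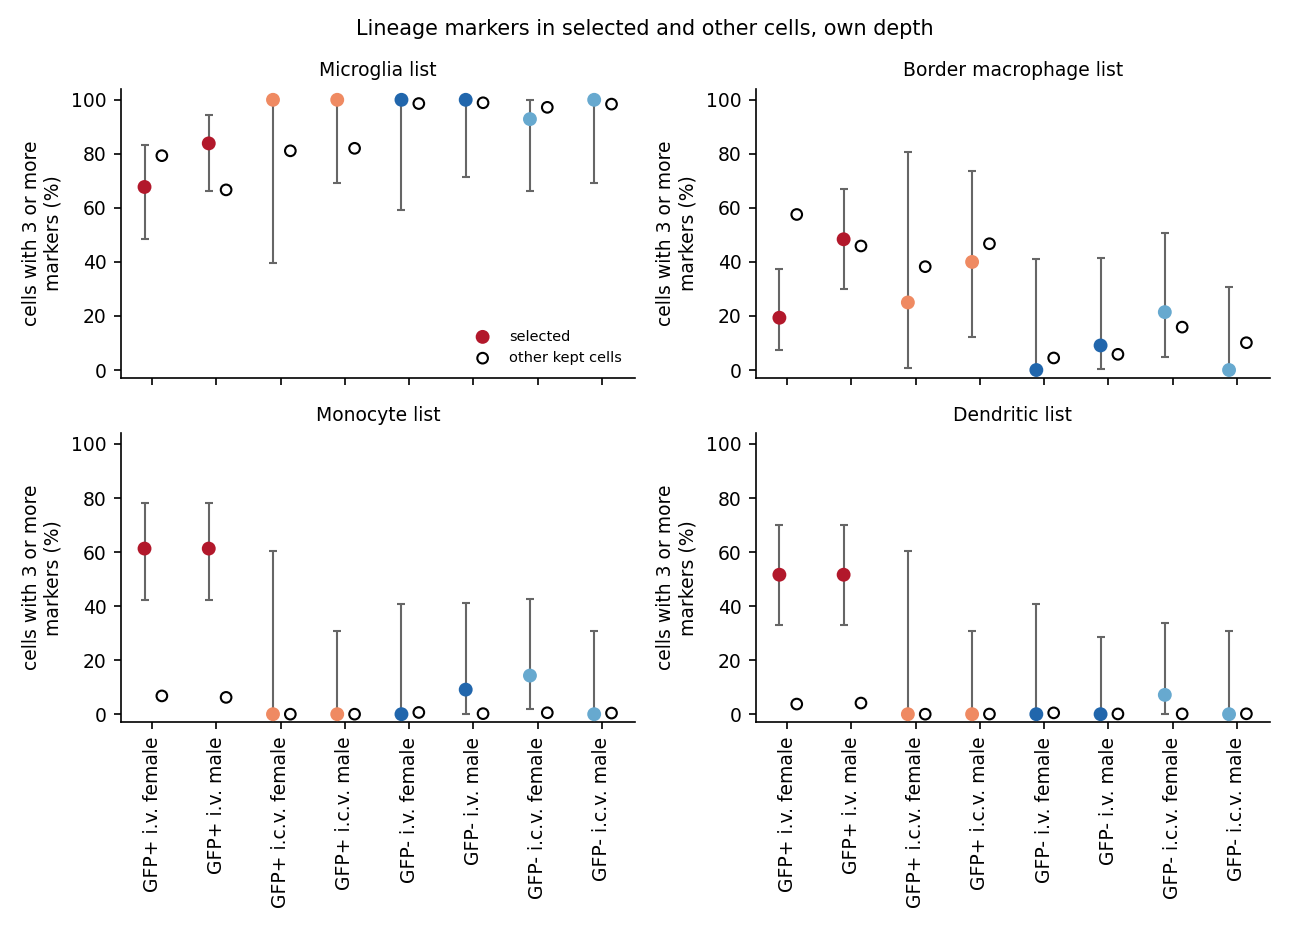
Share of cells (%) in which 3 or more markers of the microglia, border macrophage, monocyte or dendritic list were detected, for each treated library at own depth. Filled points with exact 95% binomial intervals are selected cells and open circles are the other kept cells; the monocyte and dendritic shares of the i.v. GFP+ selected cells (61.3% and 51.6%) stand above those of the other cells and of the other libraries.

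Single lineage genes were read from summed counts, given as CPM, which are counts scaled to the same UMI total in each library. Cd209a, a lectin of monocyte-derived dendritic cells, was at 701 and 907 CPM in the i.v. GFP+ female and male selected cells and at 0 in both i.c.v. GFP+ libraries. In GFP- selected cells it was at 0, 0, 156 and 0 CPM. Ccr7, the receptor that guides dendritic cells to lymph nodes, was at 97.5 and 401 CPM after i.v. dosing, at 0 in both i.c.v. GFP+ libraries and at 0, 0, 0 and 16.4 CPM in GFP-. Flt3, the receptor of dendritic cell growth, was at 51.1 and 16.1 CPM in the i.v. GFP+ libraries (22 and 8 UMIs) and at 0 in the other 6, where a level of 16.1 CPM would bring fewer than 2 UMIs. S100a4, a calcium-binding protein of monocytes, was at 766 and 704 CPM in i.v. GFP+ at 0 in i.c.v. GFP+ and at 0, 0, 29.3 and 0 CPM in GFP- selected cells. For Cd209a, Ccr7 and S100a4 both i.v. GFP+ libraries lay above the other 6. Their summed selected cells held 430728 and 495940 UMIs, against 28752 and 81976 in i.c.v. GFP+ and 8550 to 102365 in GFP-, so a 0 in the smallest library shows little for Ccr7. Cd74, the MHC class II invariant chain, was at 21287 and 28395 CPM in i.v. GFP+, 0 and 7636 in i.c.v. GFP+ and 0, 5694, 4621 and 49.1 in GFP- selected cells. Both i.v. GFP+ libraries lay above the other 6 for Cd74. In the i.v. GFP- male, i.c.v. GFP- female and i.c.v. GFP+ male libraries, most MHC class II list UMIs came from few deep cells. A single cell of the i.v. GFP- male held 543 of them, and 19377 of the 39343 UMIs of the selected cells there. Deep cells of the i.c.v. GFP- female held 634 and 490, and deep cells of the i.c.v. GFP+ male 463 and 863. Tmem119, a microglia membrane protein, was at 51.1 and 86.7 CPM in i.v. GFP+, 209 and 317 in i.c.v. GFP+, and 936, 1068, 440 and 883 in GFP- selected cells, so GFP+ and GFP- did not overlap. Sall1, a transcription factor of resident microglia, was at 4.64, 0, 69.6 and 0 CPM in GFP+ and at 351, 76.3, 48.8 and 49.1 in GFP- selected cells.

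Genes outside the rule were then compared between selected and other cells of the same library, as log2 ratios of CPM with 10 added to each. The rule chose these cells, so the ratios describe them and carry no test. Means are over the 6 libraries with at least 10 selected cells. The highest 15 genes that were higher in all 6 libraries were Stmn1, Cdca8, Knl1, Cenpe, Cdca3, Tpx2, Hmmr, Nusap1, H2afx, Rrm2, Ccnb2, Cdk1, Spc24, Racgap1 and Cks1b, most of which serve cell division. Stmn1, which destabilises microtubules, led with a mean log2 ratio of 5.30. It stood at 1196, 575, 104 and 1513 CPM in the GFP+ and 1053, 712, 1075 and 2012 CPM in the GFP- selected cells, against 10.2 to 33.8 CPM in other cells. Cdk1, the mitotic kinase, was at 95.2, 64.5, 0 and 171 CPM in GFP+ and 0, 102, 264 and 229 CPM in GFP- selected cells (log2 3.60). The 2 zeros were the libraries with 4 and 7 selected cells.

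By list, the spindle and kinetochore genes were higher in selected cells in all 6 libraries for 34 of 37 (median log2 2.67), G2/M genes for 41 of 51 (2.53) and S phase genes for 33 of 48 (1.73). For all 20131 detected features this share was 3.66%, and for features at 50 CPM or more it was 15.9%. Licensing factors such as Mcm5 and Mcm6 of the helicase were higher in all 6 for 8 of 15, nucleotide enzymes such as Rrm2 and Tyms for 5 of 10, and histones and chromatin proteins such as H2afz for 9 of 16. H2afz, a replacement histone, was at 1245 to 3468 CPM in the selected cells of these 6 libraries, against 273 to 620 CPM in other cells. Cyclins and their kinases were higher in all 6 for 7 of 13, with log2 means of 3.60 for Ccnb2, 3.25 for Ccna2, 1.08 for Cdk4 and 0.71 for Ccnd3, while Ccnd1 had 0.05 and Ccnd2 had -0.80. Of the cell cycle transcription factors, 5 of 12 were higher in all 6, among them Foxm1 (2.54) and E2f8 (2.21), which drive mitotic and limit S phase genes.

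Some CDK inhibitors were also higher in selected cells. Cdkn1a, which encodes p21, had 601, 758, 139 and 891 CPM in GFP+ and 702, 940, 821 and 1750 CPM in GFP- selected cells. Other cells had 138 to 316 CPM, and in each of the 8 libraries the selected cells were above the other cells of that library (mean log2 1.82 over 6 libraries). Cdkn2c, which encodes p18, had a mean log2 ratio of 2.88, Cdkn2d 1.95 and Cdkn3, a phosphatase of cyclin-dependent kinases, 2.49. Cdkn1b had -0.14 and Cdkn1c -0.71. In all, 4 of 8 members were higher in all 6 libraries and none was lower in all 6.

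Among genes lower in selected cells were macrophage and early response genes. The lowest 10 were Ttr, Hspa1a, Hspa1b, Ms4a7, Sox4, Ccl8, Kmt5b, Pla2g7, Slc38a6 and Stab1, with means from -4.73 for Ttr to -2.17 for Stab1. Ttr is the transthyretin of the choroid plexus epithelium, which the sort gate should leave out, and it ran from 265 to 2409 CPM in other cells against 0 to 73.2 CPM in the selected cells of the 6 libraries. Hspa1a and Hspa1b encode inducible heat shock proteins. Lower in all 6 libraries were 7 of 14 microglia markers (median -1.12), 6 of 10 border macrophage markers (-1.42), 8 of 11 immediate early and heat shock genes (-1.35), 5 of 13 activation genes and 6 of 14 growth factor and receptor genes. For all detected features this share was 15.6%, and at 50 CPM or more 14.3%. Csf1r, the receptor that maintains microglia, had 418 and 369 CPM in i.v. GFP+, 1843 and 1293 in i.c.v. GFP+ and 2105, 1449, 889 and 1587 in GFP- selected cells, with a mean log2 ratio of -0.89. Other cells had 1076 to 2393 CPM of Csf1r. Apoe, the lipid carrier abundant in engrafted macrophages, had a mean of -2.09, Mertk, a receptor for the uptake of dying cells, -1.87 and Igf1 -2.08.

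**Figure D4:**
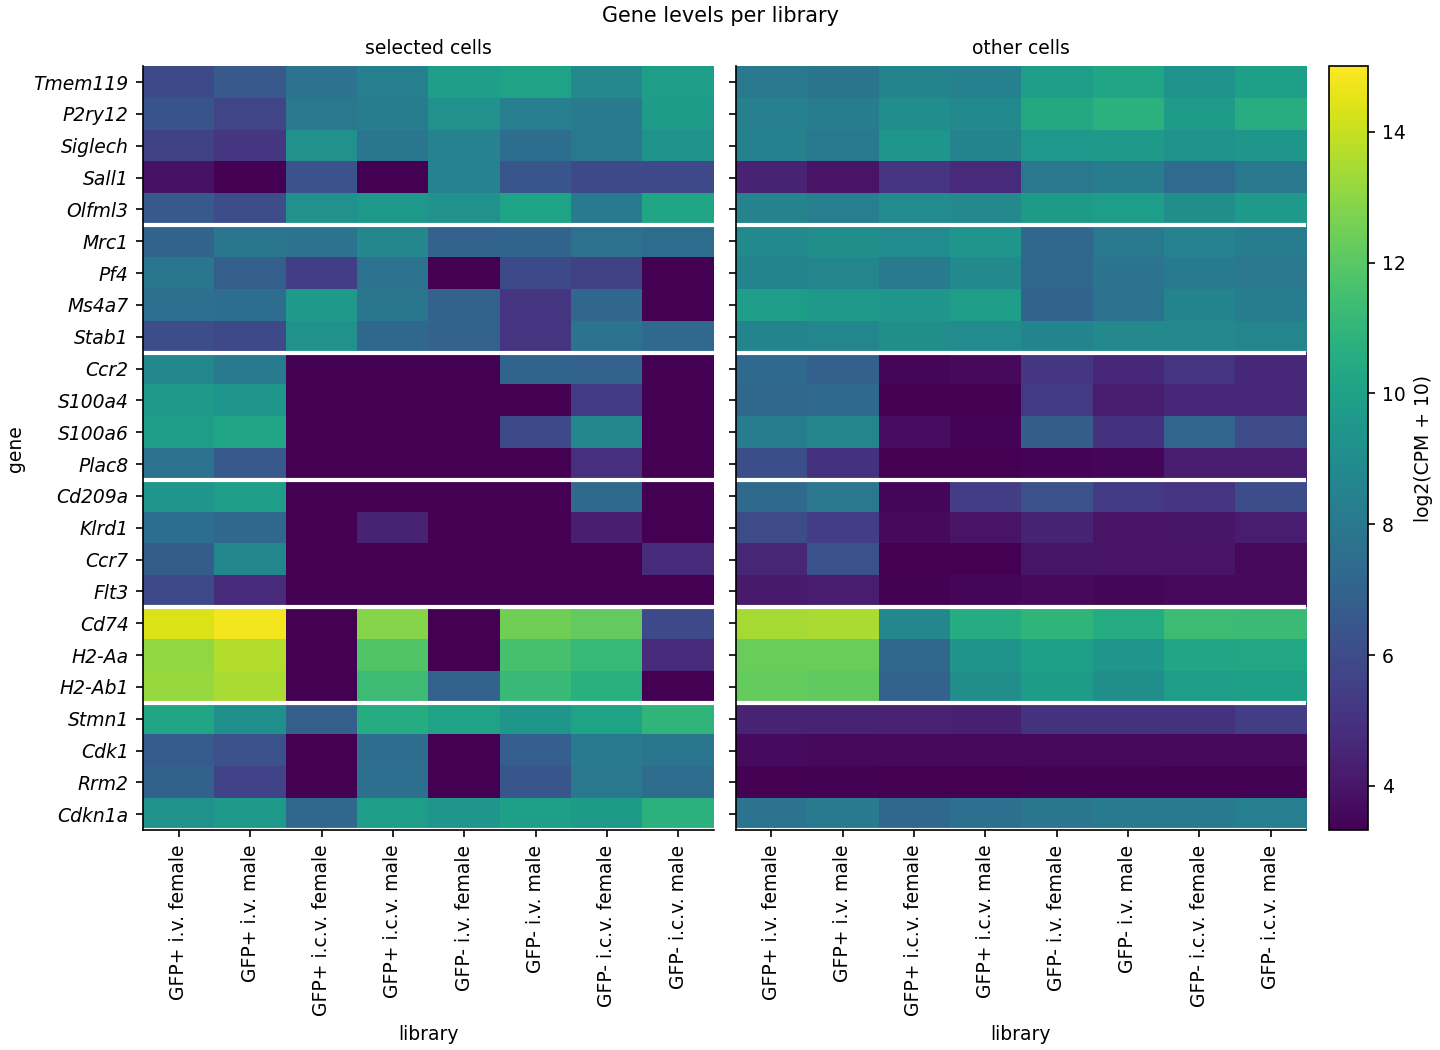
Level of named genes as log2(CPM + 10) in the summed selected cells (left) and the other kept cells (right) of each treated library. White lines part microglia, border macrophage, monocyte, dendritic, MHC class II and cell cycle genes; Cd209a, S100a4 and Cd74 are high in the i.v. GFP+ selected cells, and Stmn1 and Cdkn1a are higher in selected than in other cells.

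Expression was then compared between the GFP+ and GFP- selected cells, a contrast the rule did not use, in the 6 libraries with at least 10 selected cells (3 GFP+ and 3 GFP-). With edgeR's quasi-likelihood test on summed counts and Benjamini-Hochberg adjustment, 0 of 1493 tested genes (0%) passed an adjusted p of 0.05. At an unadjusted p under 0.05, 115 genes (7.7%) were higher and 80 (5.36%) lower in GFP+, 195 in all. DESeq2 called 71. With the mouse as a block, 52 of 2745 tested genes were called higher and 15 lower (67). Only the 2 male mice had both sorts among these 6 libraries, so the block rests on 2 pairs with 1 residual degree of freedom. Without the i.c.v. GFP+ male library, which leaves the 2 i.v. libraries as GFP+, 165 were called. Ranges of adjusted p given next for single genes are over the 15 alternatives that keep at least 2 libraries of each sort. They leave out the settings with at least 5 UMIs, 3 rule genes or the stricter filter, in which the i.c.v. GFP- female was the 1 GFP- library.

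Microglia genes were on the lower side in GFP+ selected cells. Of 11 tested out of 14 listed, all had a negative log2 fold change (median -1.80), 6 had an unadjusted p under 0.05 and none was called. Over all tested genes outside the rule the median was 0.00. Tmem119 had a log2 fold change of -2.40 (SE 0.62, edgeR adjusted p = 0.200) and of -2.30 with the mouse as a block (edgeR adjusted p = 0.00657), and over these alternatives its adjusted p ran from 0.00457 to 0.808. P2ry12, the microglial ADP receptor, had -1.89 (SE 0.67, edgeR adjusted p = 0.362), or -1.83 with the block (edgeR adjusted p = 0.0442, range over alternatives 0.0329 to 0.835). Under the block, 5 of 12 microglia genes tested were called lower, namely P2ry12, Tmem119, Sparc, Gpr34 and Olfml3. Over all genes this was 15 of 2745 tested. Siglech, a lectin of microglia, had -2.11 (SE 0.75, edgeR adjusted p = 0.362) and was not called with the block. Without the i.c.v. GFP+ male library its edgeR adjusted p was 0.0289, in a range over alternatives of 0.0246 to 0.835. Most of the fitted GFP+ libraries were i.v. and most of the GFP- libraries i.c.v., so sort and route are partly mixed. With route as a covariate, Tmem119 had -2.33, P2ry12 -1.40 and Siglech -1.35, and edgeR called no gene.

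MHC class II genes were on the higher side in GFP+ selected cells. All 6 tested out of 7 listed were positive (median 2.47), 3 had an unadjusted p under 0.05 and none was called. Under the block, 4 of 7 tested were called higher (H2-Aa, H2-Ab1, H2-Eb1 and H2-DMb1), against 52 of 2745 over all genes. DESeq2 called H2-DMa and H2-DMb1 higher, against 69 of 613 over all genes. Cd74 had a log2 fold change of 2.67 (SE 1.18, edgeR adjusted p = 0.382), with GFP+ libraries at 7636 to 28395 CPM and GFP- libraries at 49.1 to 5694 CPM. In the i.v. GFP- male, i.c.v. GFP- female and i.c.v. GFP+ male libraries, MHC class II levels rest on the few deep cells described above. With at least 2 UMIs of the rule genes Cd74 had 0.68 (edgeR adjusted p = 0.942, range over alternatives 0.0136 to 0.942). H2-Aa had 2.45 (SE 1.13, edgeR adjusted p = 0.399), or 4.28 with the block (edgeR adjusted p = 0.0423, range over alternatives 0.0076 to 0.942). S100a6 had 2.13 (SE 1.35, edgeR adjusted p = 0.532), or 4.88 with the block (edgeR adjusted p = 0.00123, range over alternatives 0.000898 to 0.978), although it was at 0 in the i.c.v. GFP+ male library. The i.c.v. pair of the block thus could not show an increase of S100a6. Its block value rests on the i.v. pair, and nothing is read from its call. The block also called Runx3 and Ms4a7 higher. Ms4a7 had 1 and 0 UMIs in the GFP- males, so its direction was fixed and nothing is read from its call. Cd209a, Ccr7, Ccl17 and S100a4 were among the calls of the block too, but were at 0 in both the i.v. GFP- male and the i.c.v. GFP+ male library. These 4 were tested because of their level in i.v. GFP+, so their direction was fixed and nothing is read from their calls. Mrc1, the mannose receptor, had 0.66 (SE 0.45, edgeR adjusted p = 0.563) and was not called with the block. Without cells that met the dendritic list, 3 genes were called. Of the cell cycle lists, 0 of 10 S phase and 0 of 28 G2/M genes were called in the main comparison. Their medians were -0.47 and -0.76, with 1 S phase and 4 G2/M genes lower at an unadjusted p under 0.05. Cells at or over the 99th percentile of the cycle lists made up 38 of 76 GFP+ but 35 of 42 GFP- selected cells. How far this bears on these medians was not tested.

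Whether the difference between selected and other cells itself depended on the sort was tested as an interaction. Of 11386 genes, edgeR called 12 (0.105%) with a higher and 27 (0.237%) with a lower selected-to-other difference in GFP+ than in GFP-, and 641 had an unadjusted p under 0.05. DESeq2 called 3. The median over all genes was 0.17. The list members among them were the neutrophil genes Camp, Ngp, Ltf, S100a8, S100a9 and Retnlg, the monocyte genes Chil3 and Ly6c2, the mitotic genes Smc4 and Cenpe, and Hspa1a. Nearly all UMIs of the neutrophil genes in selected cells came from 1 cell of the i.c.v. GFP- female library, with 8916 of its 20644 UMIs (43.2%) from neutrophil markers, 67 UMIs of all 7 rule genes and a place above all cells of similar depth for the cycle lists. Without it, 11 genes were called and none was a neutrophil gene. Chil3 then turned from -4.50 to 10.08 (edgeR adjusted p = 0.556) and Ly6c2 from -3.30 to 7.93 (edgeR adjusted p = 0.946). With cells of 3 or more rule genes, 19 were called, but only the 2 i.v. GFP+ libraries and the i.c.v. GFP- female remained, so sort and route cannot be told apart there. That setting is left out of the counts for single genes that follow, which are over the other 9 alternatives. Leaving out a library gave 23 calls without the i.v. GFP+ female, 18 without the i.v. GFP+ male, 18 without the i.c.v. GFP- female and 78 without the i.c.v. GFP+ male.

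Smc4, a subunit of the condensin that compacts chromosomes, had an interaction of -1.60 (SE 0.40, edgeR adjusted p = 0.0261). Its levels in selected cells were 309, 115 and 244 CPM in GFP+ (i.v. female, i.v. male, i.c.v. male) and 305, 557 and 425 CPM in GFP- (i.v. male, i.c.v. female, i.c.v. male), which overlap slightly. Its call was lost in 6 of 9 alternatives (adjusted p 0.00865 to 0.877). Among these, DESeq2 gave -1.47 (adjusted p = 0.659) and the fit without the cell rich in neutrophil genes -1.54 (edgeR adjusted p = 0.0588), both of similar size. Cenpe, a kinetochore motor, had -2.25 (SE 0.60, edgeR adjusted p = 0.048), with 125, 72.6 and 220 CPM in GFP+ against 178, 332 and 196 CPM in GFP-. Its call was lost in 7 of 9 alternatives (adjusted p 0.0274 to 0.481). In the treated libraries, 38 of 76 GFP+ selected cells lay at or over the 99th percentile of the cycle lists, against 35 of 42 in GFP-. Whether this unequal make-up bears on Smc4 and Cenpe was not tested. Hspa1a had 2.52 (SE 0.63, edgeR adjusted p = 0.0261), with 34.8, 288 and 220 CPM in GFP+ and 50.8, 29.3 and 32.7 CPM in GFP- selected cells. As given above, Hspa1a was lower in selected than in other cells in all 6 libraries, so this positive value is a smaller drop in GFP+. Its call was lost in 6 of 9 alternatives, including DESeq2 (adjusted p = 0.285), and its adjusted p ran from 0.000124 to 0.481. Named after its values were seen, Socs3, an inhibitor of cytokine signalling, had 2.32 (SE 0.44, edgeR adjusted p = 0.000125) and kept its call in 9 of 9 alternatives (adjusted p 0.000173 to 0.0117), DESeq2 among them (log2 2.44, adjusted p = 0.000183). With 3 rule genes it was 1.13 (edgeR adjusted p = 1). It was at 534, 258 and 573 CPM in GFP+ and at 203, 127 and 180 CPM in GFP- selected cells, without overlap. Chosen in the same way, Mgl2, a lectin of dendritic cells and macrophages, had 2.87 (edgeR adjusted p = 0.000145), Tnfsf9, the ligand of 4-1BB, 3.05 (edgeR adjusted p = 0.000202) and Serpine2, a protease inhibitor, -2.68 (edgeR adjusted p = 0.000945). With DESeq2 these 3 had log2 values of 3.27, 3.22 and -2.46, of similar size, but none was called (adjusted p = 0.285, 0.285 and 0.798). With 3 rule genes they had 1.61, 1.91 and -3.45, and edgeR called none (adjusted p = 0.868, 0.846 and 0.406). Serpine2 was also lost without the i.v. GFP+ male (edgeR adjusted p = 0.476) or the i.c.v. GFP- male (edgeR adjusted p = 0.194), and Tnfsf9 without the i.c.v. GFP- male (edgeR adjusted p = 0.0598). Mgl2 kept its call without each library in turn, but its value moved to 12.25 without the i.c.v. GFP- female. Tnfsf9 was at 202, 361 and 390 CPM in GFP+ and at 50.8, 39.1 and 0 CPM in GFP- selected cells, without overlap.

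Within GFP+ selected cells, i.v. and i.c.v. libraries were compared in a fit to all 4 groups. EdgeR called 0 of 2745 genes, with 336 at an unadjusted p under 0.05. DESeq2 called 64 out of 624 that were given an adjusted p, all of them higher after i.v. dosing. Only the male i.c.v. GFP+ library had enough selected cells, so the comparison rests on 1 library against 2, with the spread taken from all groups. Leaving out 1 library gave 0 to 70 calls, with 70 without the i.v. GFP+ female, 39 without the i.v. GFP+ male and 55 without the i.c.v. GFP- male library. Leaving out either i.v. GFP+ library sets 1 library against 1, with the spread taken from the other groups. Cd209a, Ccr7 and S100a4 were at 0 in the i.c.v. library, so they were tested because of their level after i.v. dosing and their direction was fixed. At an unadjusted p under 0.05, 201 genes (7.32%) were higher and 135 (4.92%) lower after i.v. dosing. All 7 MHC class II genes tested were on the higher side after i.v. dosing (median log2 2.02). Of 12 microglia genes tested, 11 were on the lower side (median log2 -1.92). The median was 0.01 over all genes outside the rule, with 1378 positive and 1357 negative. With 1 i.c.v. library, the list values describe these libraries and carry no test.

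Origin was read from Xist, made in female cells, from Y-linked genes, made in cells of the male donors, and from the EGFP transcript of the vector. In the i.v. GFP+ female library, 25 of 31 selected cells had Y-linked UMIs and 1 had Xist, against 50.2% and 3.17% of the other cells. The selected cells of this library were deeper (median 11553 against 3443 UMIs), so the shares with sparse Y-linked UMIs do not compare directly. In the i.c.v. GFP+ female library, 1 of 4 had Y-linked UMIs and none had Xist, against 49.5% and 1.11% of the other cells. In the GFP- females, Xist was found in 5 of 7 (i.v.) and 13 of 14 (i.c.v.) selected cells, against 87.6% and 65.7% of the other cells, and Y-linked UMIs in none. As background, Xist was found in 0 to 3.12% of the other cells of the 4 male libraries, and Y-linked UMIs in 1.65% and 1.34% of those of the GFP- females. EGFP was seen in 7, 4, 0 and 1 GFP+ selected cells and in none of the 42 GFP- cells. Neither Xist nor Y-linked UMIs were found in 5 of 31, 3 of 4, 2 of 7 and 1 of 14 selected cells of these libraries, which cannot be placed. The 1 GFP+ cell with Xist had 14 Xist UMIs, no Y-linked or EGFP UMI, UMIs of all 14 microglia markers and 3 UMIs of 1 rule gene, and it lay at the 48.4th percentile of the cycle lists. In the males, recipient and donor carry the same sex chromosomes, so these genes cannot part them.

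The balance of S phase and G2/M lists was compared last. More S phase than G2/M UMIs were found in 25 of 118 selected cells. The shares were 19.4% (6 of 31), 29.0% (9 of 31), 0% (0 of 4) and 20.0% (2 of 10) in the GFP+ libraries and 0% (0 of 7), 45.5% (5 of 11), 14.3% (2 of 14) and 10.0% (1 of 10) in the GFP- libraries. The means were 17.1% ± 12.2 and 17.4% ± 19.6 (SD, n = 4, exact two-sided permutation p = 1), a difference of -0.34 points with overlapping groups. The sign turned without the i.c.v. GFP+ female (5.36 points) or the i.v. GFP- male library (9.0 points). These counts read sparse UMIs and give no phase for a single cell.

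**Figure D5:**
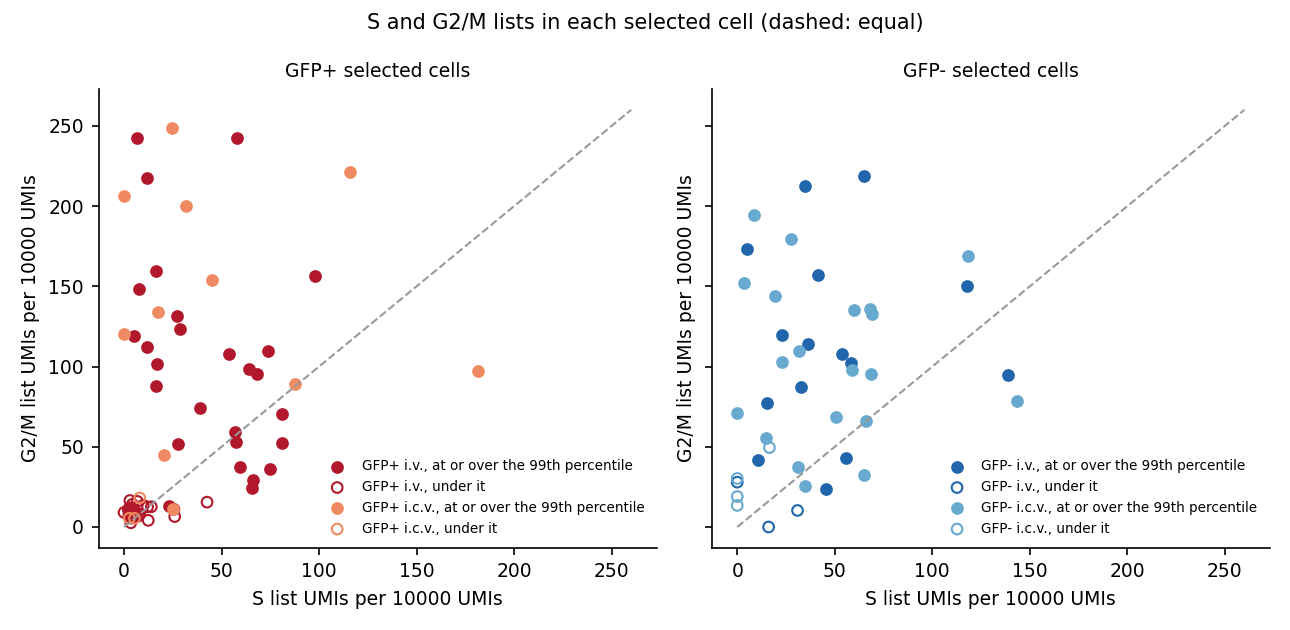
G2/M list against S phase list UMIs per 10000 UMIs in each GFP+ (left) and GFP- (right) selected cell. Filled points lie at or over the 99th percentile of cells of similar depth and open points under it; most cells lie above the dashed line of equality, and 25 of 118 lie below it.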

How the data were processed

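Whole-brain cells of 4 treated mice and 4 cell types of 1 naive mouse were measured by 10x Genomics 3′ single-cell RNA sequencing, 1 library per sample. The authors deposited UMI count matrices made with Cell Ranger 3.1.0 and mm10, and these counts were used as deposited, with no further normalization by the authors. Kept UMIs ran from 4970758 to 16514669 per treated library, and precision of a share is limited by 4 to 31 selected cells per library.

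A cell was kept from 200 detected genes upward when mitochondrial UMIs made up no more than 10%, and a stricter filter used 500 genes and 5%. The selected cells and all gene lists were chosen with earlier results of these data known. Named genes were the 7 rule genes, members of the lists, the 15 highest and 10 lowest genes outside the rule, genes called between sorts with at least 50 CPM and without overlap, and the origin genes. Others are named as chosen after their values were seen. Shares were compared over libraries by exact permutation, after thinning each cell to 500 UMIs (hypergeometric expectation). Summed counts of libraries with at least 10 selected cells were tested with edgeR 4.0.16 (quasi-likelihood, TMM, Benjamini-Hochberg) in R 4.3.3, and with DESeq2 1.42.0 as an alternative. The edgeR steps of the sort and interaction comparisons were tested on simulated data, and the DESeq2 steps were not. Permutation and thinning used scipy 1.17.1 under Python 3.11.15, with numpy 2.4.6, and tables were joined in pandas 2.3.3.

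Doublets were not removed. Scrublet (in scanpy 1.11.5) called 9 of 27439 cells and was taken not to have worked, so the 897 cells of highest score, 5 of them selected, were left out in an alternative. The GFP+ and GFP- library of a mouse pair because they are of the same animal. The deviations of the paired selected cells from the means of their sorts correlated across 3659 genes with r from -0.21 to 0.14 over the 4 mice. Alternatives covered the threshold, depth, cell filter, doublets, normalization, low counts, tool, route as a covariate, the mouse as a block and each library left out. The requirement of 3 rule genes, the 99th percentile, and leaving out dendritic or neutrophil cells were chosen after seeing the data.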

Additional observations from a re-analysis of the deposited data

Results flagged for a closer look

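Among 22 groups of 4 libraries examined, 2 held a library apart from the rest by Dixon's test, which by chance flags about 1 in 20 groups. In the i.c.v. GFP- female library 92.9% of selected cells met the microglia list and 7.14% the dendritic list, whereas the other GFP- libraries were at 100% and 0%. Each value stands for 1 of 14 cells. With the other GFP- libraries tied, any departure by 1 cell gives this flag, so the chance rate above does not apply to these 2 groups.

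The interaction of selection and sort was tested and called 39 genes. Genes with a lower selected-to-other difference in GFP+ were Camp (log2 -15.02), Ngp (-15.02), Ltf (-13.71), S100a9 (-10.91), S100a8 (-10.68) and Retnlg (-10.29), all of neutrophils, Chil3 (-4.50) and Ly6c2 (-3.30) of monocytes, the chemokine Ccl5 (-3.003), Serpine2 (-2.68) and the mitotic genes Cenpe (-2.25) and Smc4 (-1.60). Genes with a higher difference were Tnfsf9 (3.05), Mgl2 (2.87), the cytokine Il1b (2.63), Hspa1a (2.52) and the cytokine signalling inhibitor Socs3 (2.32). Outside the i.c.v. GFP- female library the selected cells held no UMI of Camp, Ngp, Ltf or Retnlg, 1 UMI of S100a8 in the i.v. GFP+ female library and 1 UMI of S100a9 in each of the i.v. GFP+ and GFP- male libraries, so the fitted values of these genes depend on the prior count. Chil3 and Ly6c2 reversed without the cell rich in neutrophil genes (10.08 and 7.93), Ccl5 reversed without the i.c.v. GFP- female library (1.15) and Il1b with 3 rule genes (-0.13), where 1 GFP- library remained. Over the other 9 alternatives, the call was lost in 6 for Smc4 and Hspa1a and in 7 for Cenpe, and Socs3 kept it in all 9. Il1b lost its call in 3, with 1.22 without the i.c.v. GFP- male, 1.94 without the i.v. GFP- male and 3.91 with DESeq2. Without the i.c.v. GFP- female library Il1b was at 5.59. With 3 rule genes Socs3 (1.13), Mgl2 (1.61) and Tnfsf9 (1.91) were smaller and not called.

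The naive libraries, which enter no comparison above, held cells that met the same rule at 1.91% of neurons (11 of 575) and 1.76% of white blood cells (6 of 341), above the 0.522% and 0.880% that a count of 0 allows. That limit is passed by any library with more than 3 such cells, so it says only that such cells were counted. Naive microglia held 2 of 1274 (0.157%) and astrocytes 1 of 1146 (0.0873%).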

How the results depend on the processing

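The thinned difference in share between sorts turned negative with 5 markers only (-0.00531 points), and leaving out a library gave -0.0256 to 0.0602. The log2 ratio of i.v. to i.c.v. shares in GFP+ (1.12) was 2.40 at own depth, 1.97 for summed CPM and 1.90 with 3 rule genes. In GFP- (-0.21) it was -0.66 at 1000 UMIs, -0.62 with the stricter filter and -1.13 for summed CPM, and it turned to 0.057 with 3 rule genes. The S phase difference became 9.58 points with at least 5 UMIs and 14.9 with 3 rule genes, and -6.15 to 9.0 without a library. Calls between sorts (0 with edgeR) were 71 with DESeq2, 187 without a filter on low counts, 160 with at least 5 UMIs, 152 with 3 rule genes, 11 with the stricter filter, 3 without dendritic cells, and 0 to 165 without a library. With at least 5 UMIs, 3 rule genes or the stricter filter, 1 GFP- library remained (the i.c.v. female), which was assumed to vary like the others. Interaction calls (39) were 3 with DESeq2, 11 without the neutrophil cell, 19 with 3 rule genes and 18 to 78 without a library. Route calls (0) were 64 with DESeq2 and 0 to 70 without a library, and the fit without the i.c.v. GFP+ male could not be made. Of 17 genes in 170 gene-settings of the interaction, 102 kept call and direction, 58 lost the call and 10 reversed. The reversed were Camp 0.22, Ltf 0.023, S100a8 5.31, Chil3 10.08 and Ly6c2 7.93 without the neutrophil cell, these last 3 and Ccl5 without the i.c.v. GFP- female, and Il1b -0.13 with 3 rule genes. Without each library in turn, values ran from -4.09 to 1.15 for Ccl5, -16.05 to 2.97 for S100a8, -13.48 to 7.90 for Chil3 and -3.92 to 6.71 for Ly6c2. For Il1b they ran from 1.22 to 5.59 and for Mgl2 from 2.59 to 12.25. Causes were not tested, except that the neutrophil genes came from that cell.

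With the mouse as a block, 67 genes were called between sorts. Over the mice the share difference was 0.0145 points (exact sign-flip p = 0.875) and the S phase difference -0.34 points (exact sign-flip p = 1), but sign flips over 4 mice cannot reach a p of 0.05, so these tests say nothing of stability. The interaction fit holds the library, and with it the mouse, as a factor, and the routes share no mouse. Depth limits all results of the GFP- libraries, whose selected cells summed to 8550 to 102365 UMIs.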
